A study of Mus musculus with 8 samples.

Results

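Fatty acid desaturases and elongases were followed in mouse liver through 10 genes of the Scd, Fads and Elovl families: Scd1, Scd2, Fads1, Fads2, Fads3, Elovl1, Elovl2, Elovl3, Elovl5 and Elovl6. They were taken by name from the deposited table of 56748 gene IDs, and all 10 were found and had enough counts to be tested. The study sequenced bulk liver RNA as 4 miR-93 knockout and 4 wild-type libraries, by their labels. All mice ate a high-fat, high-fructose diet, and all 8 libraries carry the label MASLD (metabolic dysfunction-associated steatotic liver disease) at 16 weeks. No library of mice on another diet was analysed here, so each difference is one between genotypes on that diet. The sources used here do not give the strain, age and sex of the mice, the cells in which the microRNA was deleted, or whether the 4 libraries of a genotype are 4 separate animals. The p-values therefore measure the spread between these libraries, which may be technical.

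The 10 enzymes sit in the membrane of the endoplasmic reticulum and act in relays on the same chains. Fatty acid synthase releases palmitate, the elongases add carbon units from malonyl-CoA to an acyl-CoA chain in the first and rate-limiting step of a cycle, and the desaturases put double bonds in with electrons from cytochrome b5. Scd enzymes make oleate and palmitoleate from saturated chains, and in the liver Scd1 and Elovl6 are well-known targets of the lipogenic factors SREBP-1c, ChREBP and LXR. Fads1, Fads2, Elovl5 and Elovl2 turn the dietary essential fatty acids into arachidonate and docosahexaenoate, and the first 3 of these are known to be raised by SREBP-1c and PPARα.

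All 8 libraries had 0 counts of the Mir93 gene itself, so the knockout label could not be checked from these data. Total counts ran from 9187279 to 10966019 in knockout libraries and from 5085860 to 7451026 in wild-type libraries. Transcripts of the mitochondrial genome took 8.08% to 15% of them in knockout libraries, against 25.4% to 35.5% in wild-type replicates 1 to 3 and 77.8% in wild-type replicate 4. That last library was left with 1131446 nuclear counts and the fold changes and ratios of the members are also given without it. Levels are counts per 1000000 after TMM scaling between libraries (CPM), where 3 counts, the most that a count of 0 leaves possible, equal 0.219 to 0.252 CPM in knockout libraries, 0.379 to 0.455 CPM in wild-type replicates 1 to 3 and 1.69 CPM in wild-type replicate 4. This limit covers counting error only. Log2 fold changes put knockout over wild type and carry the standard error of the fit by edgeR, with p adjusted over the 13204 genes tested and a threshold of 0.05. A median of -0.01 over all these genes is their zero point. Hepatocyte markers (Alb, Apoa1, Apob, Ttr and others, 8 genes) summed to 43289 to 48972 CPM in knockout and 45907 to 59391 CPM in wild-type libraries, so the markers of the labelled tissue were abundant in all libraries.

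Of the 10 members, 6 were lower in knockout and 4 were not called. The 6 were Scd1, Elovl6, Elovl3, Fads3, Elovl5 and Fads1, while Scd2, Elovl1, Fads2 and Elovl2 did not pass the test. Among all genes tested, 21.0% were called, 10.7% lower and 10.4% higher. Every knockout library lay below every wild-type library for Scd1, Elovl6, Elovl3 and Fads3, against 30.3% of all tested genes whose groups did not overlap in either direction. All 10 fitted log2 fold changes were below 0, with a median of -0.98, so no member was higher in edgeR at any p, and none was called higher by DESeq2 or limma-voom. Without wild-type replicate 4 the count became 7 lower, with Fads2 added, where 2407 of 13777 genes tested were lower and 2446 higher. With the mitochondrially encoded genes left out of the table the same 6 were called, where 1457 of 13339 genes were lower and 1336 higher. Scaling by library size alone, which moves the median of all genes to 0.54, left 3 calls (Scd1, Elovl6 and Elovl3), where 124 of 13204 genes were lower and 561 higher. It gave Scd2, Elovl1, Fads2 and Elovl2 positive values between 0.04 and 0.42, all below that median.

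**Figure D1:**
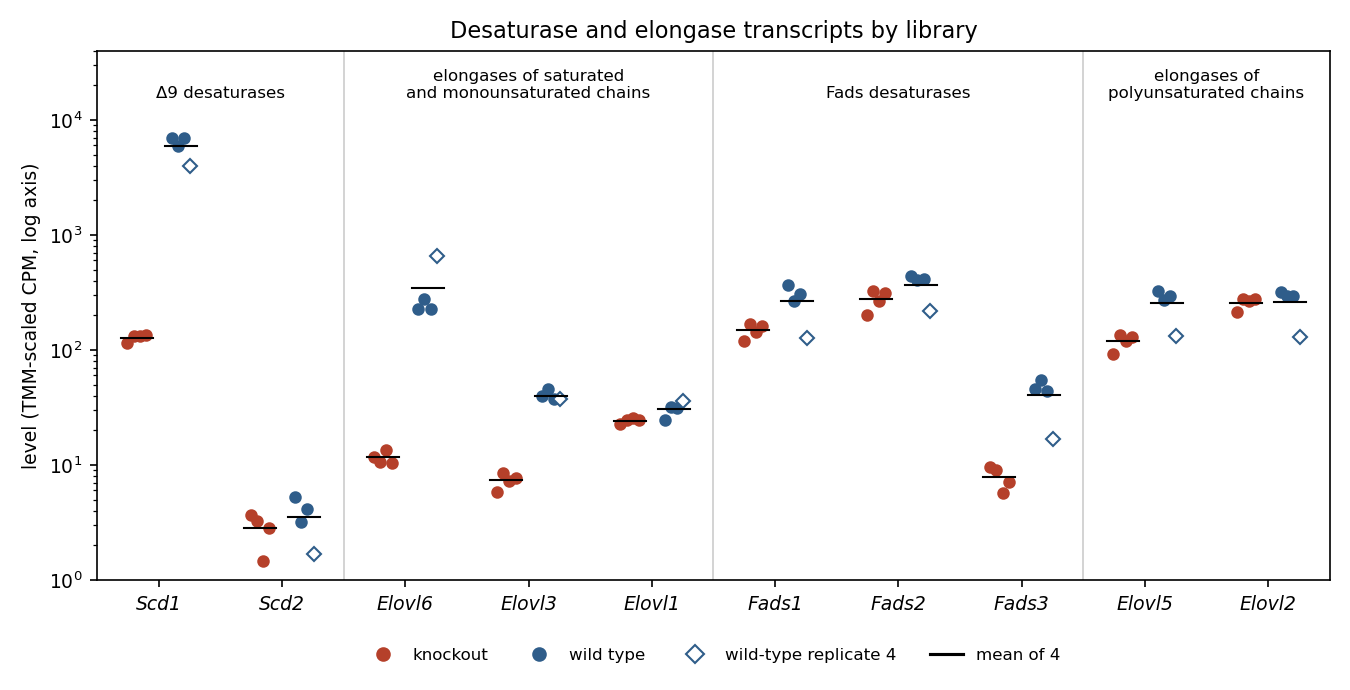
Level of each member in every library in TMM-scaled CPM on a log axis, with knockout libraries as red points, wild-type libraries as blue points, wild-type replicate 4 as an open diamond and the mean of 4 as a bar. Scd1, Elovl6, Elovl3 and Fads3 show 2 separate clouds, Scd1 with 114 to 134 CPM in knockout and 4009 to 7027 CPM in wild type, while the clouds of the other 6 members overlap.

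Scd1 (ENSMUSG00000037071), the main delta-9 desaturase of liver, changed most. It stood at 114, 131, 133 and 134 CPM in knockout replicates 1 to 4, against 7027, 5923, 6923 and 4009 CPM in wild-type replicates 1 to 4. The knockout libraries lay within a narrow band far below all wild-type libraries, of which replicate 4 was the lowest. The log2 fold change was -5.54 ± 0.22 (95% interval -6.03 to -5.06, edgeR adjusted p = 5.07e-08), a level 46.6-fold lower in knockout. By this value Scd1 ranked number 7 from the lowest of the 13204 genes. Without wild-type replicate 4 the log2 fold change was -5.68 ± 0.10. As a share of nuclear counts, with no scaling between libraries, Scd1 took 0.0169% to 0.0189% in knockout libraries and 0.63% to 1.00% in wild-type libraries.

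Scd2 (ENSMUSG00000025203), which catalyses the same reaction and is best known from brain and from the liver of newborn mice, was scarce. Its levels were 3.66, 3.28, 1.46 and 2.82 CPM in knockout libraries and 5.30, 3.16, 4.10 and 1.69 CPM in wild-type libraries, and the groups overlapped. Its log2 fold change, -0.45 ± 0.37, missed the threshold (edgeR adjusted p = 0.409), and its interval ran from -1.26 to 0.36, so a fall of the size seen for Scd1 lies outside it. The value was -0.58 ± 0.31 without wild-type replicate 4 (adjusted p = 0.156). Wild-type replicate 4 held only 3 counts of it and the others 20 to 45. The mouse Scd genes lie side by side on chromosome 19 and are alike in sequence, and the sources used here do not say where a read that fits several genes was counted, so these few counts are uncertain. The other Scd genes were all but unread, with 1 count of Scd3 and 4 counts of Scd4 over the 8 libraries.

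Elovl6 (ENSMUSG00000041220), the elongase that turns palmitate into stearate, fell next most. It stood at 11.7, 10.7, 13.6 and 10.5 CPM in knockout libraries, against 226, 279, 226 and 656 CPM in wild-type replicates 1 to 4. The groups were far apart, and wild-type replicate 4, low for Scd1, was here the highest library at 2.69 times the mean of the other 3. The log2 fold change was -4.89 ± 0.37 (95% interval -5.70 to -4.08, edgeR adjusted p = 8.13e-06), and without that library it was -4.38 ± 0.12 (adjusted p = 4.1e-19). The antisense gene Gm35986 overlaps Elovl6 in the annotation and had 3 to 10 counts in knockout libraries and 11 to 57 counts in wild-type libraries. The sources used here do not say whether counting used strand, so reads of the antisense partner cannot be told apart from those of Elovl6.

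Elovl6 was also the only member with a match to the miR-93 seed in its longest annotated 3′ UTR, and the sequences are shown for that reason. The mature microRNA is from RefSeq (GRCm38.p6, chr5:138165574-138165596, minus strand), with its seed, bases 2 to 8, in capitals; miR-17-5p, miR-20a-5p, miR-20b-5p, miR-106a-5p, miR-106b-5p and miR-6383 share that seed. The site is at position 2511, counted from the stop codon, of a UTR of 5005 bases (GENCODE M21, GRCm38), with the letters complementary to the seed in capitals.
mmu-miR-93-5p: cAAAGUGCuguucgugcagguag
Elovl6 3′ UTR site: atgcttccaaaGCACTTTagtctcagtgt
The 7 letters GCACTTT occurred in 1 of the 10 members and in 1744 of the 11598 tested genes with an annotated 3′ UTR (15.04%). That share is not matched for UTR length. The UTR of Elovl6 was the longest of the members, the others having 834 to 3664 bases, and the median of the tested genes was 1346 bases. The match is one of letters and says nothing about binding.

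The promoter of Elovl6 is shown because, of the members with a promoter here, its gene had the largest fall. It spans 250 bases before to 50 bases after the start (RefSeq, GRCm38.p6, chr3:129532136-129532435, plus strand). RefSeq promoters were matched for 6 members: Elovl6, Elovl1, Elovl5, Elovl2, Fads2 and Fads3. Letters were searched on both strands, and their background is the share of all 32851 promoters of that length that hold them. They were the sterol response element core TCACCCCA (1.56% of promoters), the E-box CACGTG (7.15%), the NF-Y box CCAAT (37.4%), the nuclear receptor half-site AGGTCA (16.3%) and the GC box GGGCGG (35.7%). Capitals mark the matches, none of which overlaps another in the promoters printed.
Elovl6: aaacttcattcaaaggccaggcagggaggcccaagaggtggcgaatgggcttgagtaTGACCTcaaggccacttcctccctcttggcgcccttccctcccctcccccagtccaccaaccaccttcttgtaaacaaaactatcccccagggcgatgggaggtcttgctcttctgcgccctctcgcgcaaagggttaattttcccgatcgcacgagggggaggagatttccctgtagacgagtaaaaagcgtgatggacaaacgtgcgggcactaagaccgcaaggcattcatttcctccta
The Elovl6 window held 1 nuclear receptor half-site, read on the other strand, and none of the other 4 letter strings. These are matches of letters in a short window, not evidence of a site.

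Elovl3 (ENSMUSG00000038754) makes very long saturated and monounsaturated chains and is known in the mouse from brown fat, skin and liver. Its levels were 5.78, 8.58, 7.30 and 7.76 CPM in knockout libraries and 39.7, 45.5, 37.2 and 37.1 CPM in wild-type libraries. The groups were separate and wild-type replicate 4 lay beside the other wild-type libraries. In log2 terms the fold change was -2.44 ± 0.16 (edgeR adjusted p = 2.33e-06), a level 5.44-fold lower in knockout, and -2.46 ± 0.14 without that library. Of 6 adipocyte markers, Lep had no count, and Adipoq, Plin1, Cfd and Ucp1 had 0 to 4 counts in any library. Cidec had 8.63 to 11.4 CPM in knockout and 3.28 to 5.09 CPM in wild-type libraries. Of 5 sebaceous gland and skin markers, Awat1, Krt5 and Krt14 had no count. Awat2 had 1.53 to 1.98 CPM in knockout and 1.37 to 3.94 CPM in wild-type libraries. Far2 had 19.9 to 25.9 CPM in knockout and 28.8 to 31.9 CPM in wild-type libraries, and neither was called. The part of such cells in the level of Elovl3 was not tested.

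Elovl1 (ENSMUSG00000006390), which makes the very long saturated chains used in sphingolipids, differed little. It stood at 22.7, 24.4, 25.6 and 24.5 CPM in knockout libraries and 24.6, 31.9, 31.1 and 36.0 CPM in wild-type libraries. Wild-type replicate 1 lay within the knockout values and the other wild-type libraries above them. A log2 fold change of -0.33 ± 0.14 (95% interval -0.63 to -0.03) missed the threshold (edgeR adjusted p = 0.113). It was -0.42 without wild-type replicate 1 (adjusted p = 0.0498) and -0.25 ± 0.12 without wild-type replicate 4 (adjusted p = 0.101). The interval of Elovl1 lay above those of Elovl3 (-2.78 to -2.10) and Elovl6, the other elongases of saturated and monounsaturated chains, a description with no test of the difference.

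Fads2 (ENSMUSG00000024665), the delta-6 desaturase that opens the path from essential to long polyunsaturated fatty acids, had 203, 324, 266 and 314 CPM in knockout libraries and 440, 406, 417 and 218 CPM in wild-type libraries. Wild-type replicate 4 lay among the knockout libraries and the other 3 above all of them. At -0.42 ± 0.23 (95% interval -0.92 to 0.08) its log2 fold change missed the threshold (edgeR adjusted p = 0.21). Without wild-type replicate 4 Fads2 was called, at -0.60 ± 0.12 (adjusted p = 0.000459).

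Fads1 (ENSMUSG00000010663) is the delta-5 desaturase that completes arachidonate. Its levels were 120, 168, 144 and 160 CPM in knockout libraries and 370, 269, 307 and 127 CPM in wild-type libraries, where replicate 4 was again within the knockout values. Its log2 fold change of -0.86 ± 0.27 was close to the threshold (edgeR adjusted p = 0.0415). It was -1.08 ± 0.11 without wild-type replicate 4 (adjusted p = 1e-07), and it lost its call without any other single library, with values of -0.92 to -0.66 and adjusted p of 0.0868 to 0.119 over those 7 fits. With the replicate number as a block, the adjusted p was 0.136.

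Fads3 (ENSMUSG00000024664), the third gene of the cluster on chromosome 19 and in human cells a desaturase of sphingoid bases, was also lower in knockout. It stood at 9.53, 9.09, 5.70 and 7.08 CPM in knockout libraries, against 46.0, 54.3, 43.8 and 16.9 CPM in wild-type libraries. The groups did not overlap, and wild-type replicate 4 was the lowest of its group. For Fads3 the log2 fold change was -2.41 ± 0.29 (95% interval -3.05 to -1.78, edgeR adjusted p = 0.000229), an interval below those of Fads1 (-1.45 to -0.27) and Fads2, a difference that was not tested itself. It was -2.61 ± 0.15 without wild-type replicate 4. The Fads3 promoter is shown because its gene moved most of the 3 Fads genes (RefSeq, GRCm38.p6, chr19:10041298-10041597, plus strand).
Fads3: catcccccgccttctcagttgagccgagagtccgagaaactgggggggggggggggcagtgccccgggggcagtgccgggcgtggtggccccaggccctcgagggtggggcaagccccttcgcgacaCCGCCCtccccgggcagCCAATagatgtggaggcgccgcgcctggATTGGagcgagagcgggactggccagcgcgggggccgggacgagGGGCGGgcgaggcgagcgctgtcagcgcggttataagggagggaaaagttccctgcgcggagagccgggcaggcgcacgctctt
Its capitals mark 2 NF-Y boxes and 2 GC boxes, and no sterol response element core, E-box or half-site was present in this window. The Fads2 window held 1 GC box and none of the other letter strings.

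Elovl5 (ENSMUSG00000032349), the elongase of the earlier polyunsaturated steps, had 93.1, 136, 120 and 130 CPM in knockout libraries and 323, 271, 294 and 132 CPM in wild-type libraries. Wild-type replicate 4 fell among the knockout libraries and the other 3 lay above all of them. Elovl5 had a log2 fold change of -1.10 ± 0.25 (95% interval -1.64 to -0.55, edgeR adjusted p = 0.0104), and -1.30 ± 0.11 without that library. With the replicate number as a block the adjusted p was 0.053. The promoter of Elovl5 (RefSeq, GRCm38.p6, chr9:77917115-77917414, plus strand) is shown beside that of Elovl6, since both genes are known targets of lipogenic factors and differed in the size of their fall.
Elovl5: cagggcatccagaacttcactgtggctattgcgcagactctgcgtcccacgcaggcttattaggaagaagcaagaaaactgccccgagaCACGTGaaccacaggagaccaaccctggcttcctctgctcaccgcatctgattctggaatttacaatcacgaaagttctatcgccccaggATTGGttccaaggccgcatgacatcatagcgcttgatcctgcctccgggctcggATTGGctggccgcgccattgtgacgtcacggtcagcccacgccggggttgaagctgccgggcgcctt
Its capitals mark 1 E-box and 2 NF-Y boxes read on the other strand, and no sterol response element core, half-site or GC box was present. Of the members not called, the first Elovl1 window held 1 NF-Y box and 5 GC boxes, and the second 1 half-site and 2 GC boxes. The first Elovl2 window held 5 GC boxes and the second none of the strings. A link between these strings and the size of a fall was not tested.

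Elovl2 (ENSMUSG00000021364), the elongase of the later steps towards docosahexaenoate, showed no called change. Its levels were 215, 277, 264 and 276 CPM in knockout libraries and 320, 295, 297 and 130 CPM in wild-type libraries. The 3 higher wild-type libraries lay above all knockout libraries, and wild-type replicate 4 lay below all of them. Elovl2 had a log2 fold change of -0.02 ± 0.24 (95% interval -0.55 to 0.51, edgeR adjusted p = 0.97), and -0.23 ± 0.10 without wild-type replicate 4 (adjusted p = 0.0675). The interval over all 8 libraries leaves room for a log2 change anywhere between -0.55 and 0.51.

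**Figure D2:**
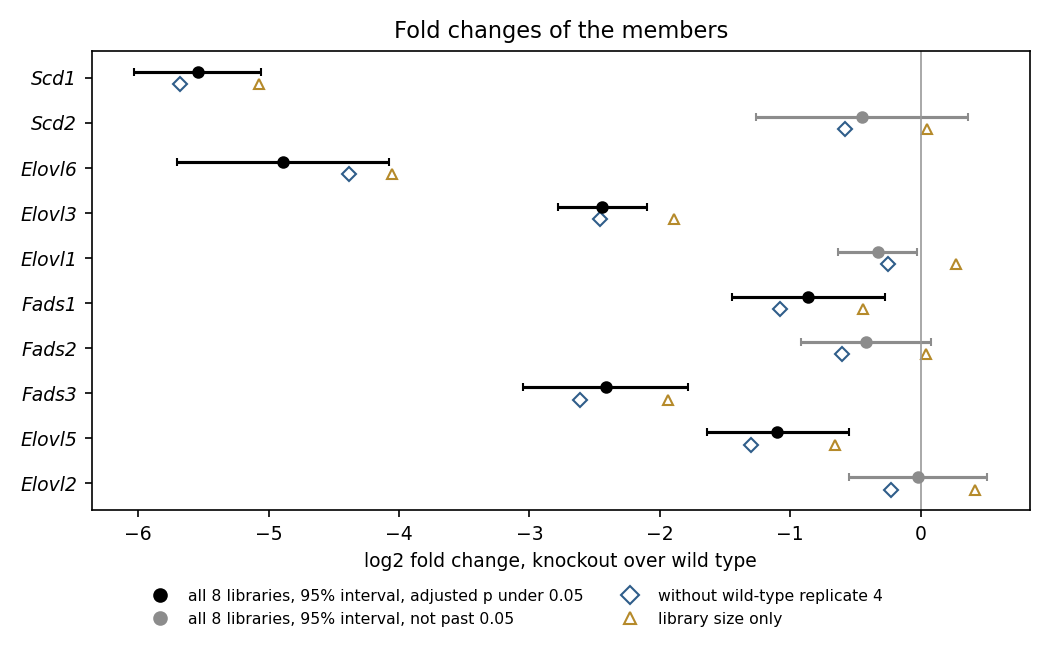
Log2 fold change of each member, knockout over wild type, with its 95% interval from the edgeR fit over 8 libraries (black past an adjusted p of 0.05, grey not), and the values without wild-type replicate 4 (open diamonds) and with library size as the only scaling (open triangles). Scd1 (-5.54) and Elovl6 (-4.89) lie farthest from 0 under each, whereas Scd2, Elovl1, Fads2 and Elovl2 cross to positive values with library size only, where the median of all genes is 0.54.

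Ratios of a pair of members within a library do not depend on scaling between libraries, so 4 of them were compared. Elovl2 and Elovl5, successive elongases of the polyunsaturated path, kept an almost constant ratio within each genotype. There were 2.31, 2.04, 2.21 and 2.12 Elovl2 counts for each Elovl5 count in knockout libraries, against 0.988, 1.09, 1.01 and 0.991 in wild-type replicates 1 to 4. All knockout libraries lay above all wild-type libraries, and wild-type replicate 4, which stood apart for either gene alone, matched the rest of its group. On the log2 scale the ratio was 1.12 ± 0.08 in knockout and 0.03 ± 0.07 in wild type (SD, n = 4 each), a difference of 1.09 (1.08 without wild-type replicate 4). The two-sided exact permutation p was 0.0286, the smallest that the 70 assignments allow, and 0.0381 adjusted over the 4 ratios.

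The ratio of Elovl6 to Elovl5, elongation of saturated against polyunsaturated chains, was also separate between genotypes. It was 0.126, 0.0786, 0.114 and 0.0807 in knockout libraries, against 0.700, 1.03, 0.768 and 4.99 in wild-type replicates 1 to 4, with replicate 4 far above the others. The log2 ratio was -3.35 ± 0.34 in knockout and 0.37 ± 1.32 in wild type (SD, n = 4 each), a difference of -3.72, with the same exact permutation p of 0.0286 and adjusted p of 0.0381. It was -3.07 without wild-type replicate 4.

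Scd1 counts exceeded Scd2 counts in every library, by 31.2, 39.9, 90.8 and 47.8 times in knockout libraries and by 1325, 1874, 1690 and 2377 times in wild-type libraries. The log2 ratio was 5.57 ± 0.65 in knockout and 10.72 ± 0.27 in wild type (SD, n = 4 each), a difference of -5.15 with an exact permutation p of 0.0286 and an adjusted p of 0.0381. The difference was -5.06 without wild-type replicate 4. The low counts of Scd2 limit how well this ratio is known.

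The ratio of Fads1 to Fads2 was 0.593, 0.517, 0.542 and 0.510 in knockout libraries and 0.841, 0.662, 0.737 and 0.581 in wild-type replicates 1 to 4, and only replicate 4 fell within the knockout values. The log2 ratio was -0.89 ± 0.10 in knockout and -0.52 ± 0.23 in wild type (SD, n = 4 each). The difference of -0.37 did not pass the test (two-sided exact permutation p = 0.0571, adjusted p = 0.0571). Without wild-type replicate 4 it was -0.46 and the groups were separate (exact permutation p = 0.0286, the smallest possible).

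**Figure D3:**
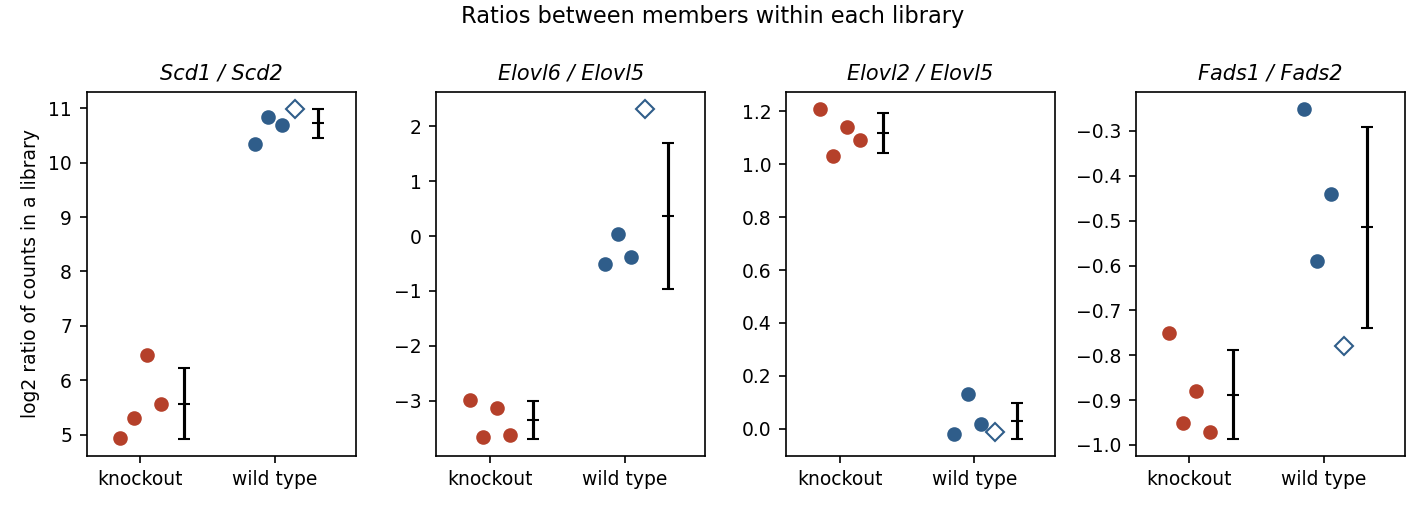
Log2 ratio of the counts of a pair of members in each library, knockout in red and wild type in blue with replicate 4 as an open diamond, and the mean ± SD of 4 libraries in black beside the points; each panel has its own axis. Elovl2/Elovl5 is tight in both groups (1.12 ± 0.08 in knockout, 0.03 ± 0.07 in wild type), and only the Fads1/Fads2 groups overlap.

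The make-up of the family differed between the genotypes. Counts were divided by the exon length of each gene, since levels of different genes can be compared only per kb. Scd1 made up 11.3%, 9.34%, 10.6% and 9.83% of the family's counts per kb in knockout libraries, against 75.7%, 74.1%, 76.8% and 73.1% in wild-type libraries. Scd1 was thus a minor member in every knockout library and the main one in every wild-type library, replicate 4 included. Fads2 made up 32.5% ± 2.17 in knockout and 6.84% ± 0.691 in wild type, and Elovl2 made up 25.4% ± 0.888 in knockout and 3.95% ± 0.708 in wild type (SD, n = 4 each). Part of that comes from the loss of Scd1 from the sum. With Scd1 left out, Fads2 made up 36.2% ± 2.08 in knockout and 27.4% ± 3.68 in wild type, Elovl2 28.3% ± 1.25 in knockout and 15.9% ± 3.32 in wild type, and Fads1 13.3% ± 0.214 in knockout and 13.4% ± 3.43 in wild type (SD, n = 4 each). Wild-type replicate 4 lowered each of these wild-type means. Fads1 took 16.7%, 13.2%, 15% and 8.72% in wild-type replicates 1 to 4, Fads2 29%, 29.1%, 29.7% and 21.9%, and Elovl2 17.5%, 17.6%, 17.6% and 10.9%. With Scd1 still left out, the shares of the other members follow. Elovl6 made up 0.994%, 0.64%, 0.925% and 0.648% in knockout libraries, against 7.65%, 10.2%, 8.24% and 33.9% in wild-type replicates 1 to 4. Replicate 4 held the highest Elovl6 share by far, and the other 3 wild-type libraries still lay above all knockout libraries.

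Ranked by CPM per kb, the order in knockout was Fads2 (84.0), Elovl2 (65.1), Elovl5 (34.0), Fads1 (30.8), Scd1 (26.2), Elovl1 (8.91), Elovl3 (3.73), Fads3 (2.07), Elovl6 (1.81) and Scd2 (0.513). Neighbours whose ranges over the libraries overlapped were Fads2 and Elovl2, Elovl5 and Fads1, Fads1 and Scd1, and Fads3 and Elovl6. Ranges ignore that both genes were read in the same library. Within each knockout library the order of these neighbours held, except that Elovl6 lay above Fads3 in replicate 3. In wild type it was Scd1 (1220), Fads2 (112), Elovl5 (72.4), Elovl2 (65.7), Fads1 (55.7), Elovl6 (53.9), Elovl3 (20.2), Elovl1 (11.3), Fads3 (10.6) and Scd2 (0.652). There Scd1 was apart from Fads2, Elovl6 from Elovl3, Elovl3 from Elovl1 and Fads3 from Scd2, and the ranges of the other neighbours overlapped. Within single wild-type libraries the order of those neighbours held, with these exceptions. Elovl6 lay above Fads1 in replicate 4, and Fads3 lay above Elovl1 in replicates 1 to 3. Elovl6 held place 9 in knockout and place 6 in wild type.

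**Figure D4:**
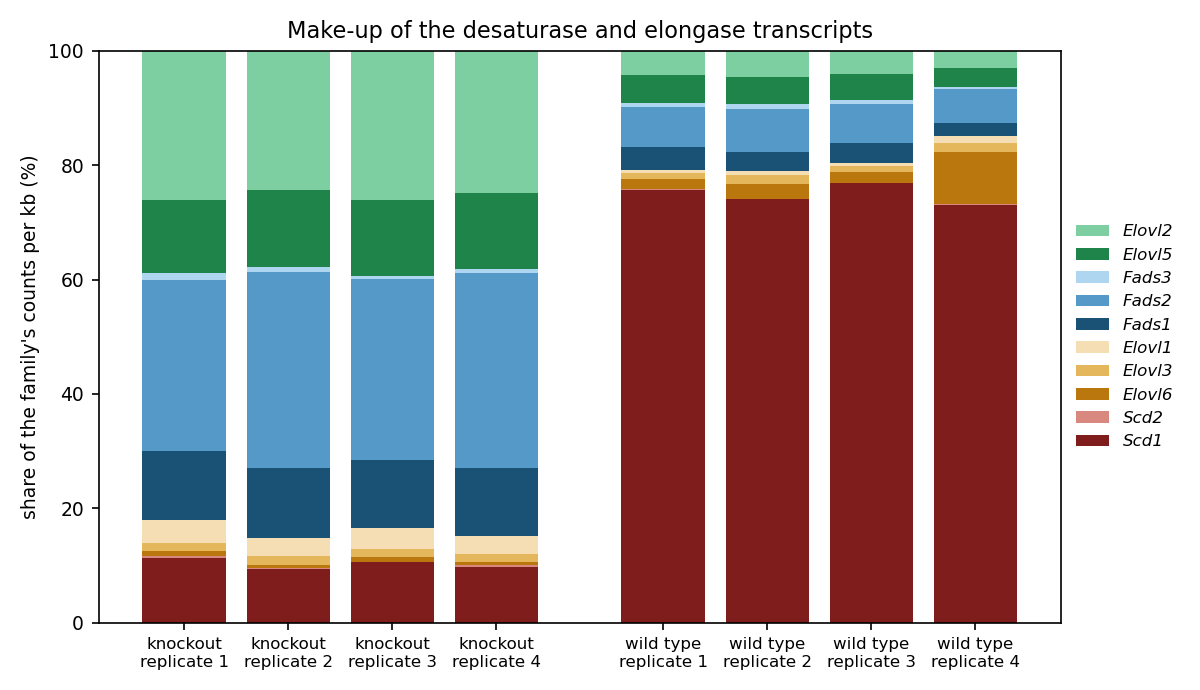
Share of each member in the family's counts per kb of exon, in percent, for each of the 8 libraries, knockout on the left. Scd1 (dark red) takes 9.34% to 11.3% in knockout and 73.1% to 76.8% in wild type, and Elovl6 (dark orange) is widest in wild-type replicate 4 at 9.1%.

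Genes that feed the enzymes were read from the same fit, in which 10.7% of all genes tested were lower and 10.4% higher. Of 8 genes that supply palmitate and malonyl-CoA, 7 fell and 1 did not pass, with a median log2 fold change of -2.24 against -0.01 over all genes. Fasn, the fatty acid synthase, stood at 43.7, 47.2, 49.5 and 48.0 CPM in knockout libraries and 744, 793, 763 and 707 CPM in wild-type libraries, at -4.00 ± 0.14 (edgeR adjusted p = 2.53e-08). Thrsp, the lipogenic regulator known as Spot 14, averaged 25.6 ± 2.99 CPM over knockout libraries, against 1009 ± 73.1 CPM over wild-type libraries (SD, n = 4 each), at -5.30 ± 0.16 (edgeR adjusted p = 1.33e-08). These genes, unlike Elovl6 and Fads3, had close values in all 4 wild-type libraries. The malic enzyme Me1, named after its values were seen as the gene not called, had -0.76 ± 0.30 (edgeR adjusted p = 0.0962), and -1.0 (adjusted p = 7.64e-08) without wild-type replicate 4, where its level was 25.9 CPM. In that fit all 8 genes of the list were called, with Fasn at -4.01 and Thrsp at -5.24. Among all 13777 genes tested in it, 2407 were lower and 2446 higher.

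Of 6 genes for the other steps of the elongation cycle, 1 rose, 1 fell and 4 did not pass. Their median was -0.05, and 21.0% of all genes tested were called. Tecr, the reductase of the last step, averaged 128 ± 8.42 CPM over knockout libraries, against 230 ± 17.4 CPM over wild-type libraries (SD, n = 4 each) and a log2 fold change of -0.85 ± 0.13 (edgeR adjusted p = 0.000984). Hacd3, a dehydratase of the cycle, averaged 115 ± 13 CPM over knockout libraries, against 78.1 ± 16.4 CPM over wild-type libraries (SD, n = 4 each), at 0.54 ± 0.17 (edgeR adjusted p = 0.0438). Leaving out any of knockout replicates 2, 3 and 4 and wild-type replicates 2 and 3 ended the call of Hacd3, with adjusted p of 0.0791 to 0.12 and values of 0.52 to 0.57. The reductase Hsd17b12 (0.24) and the dehydratases Hacd1 (0.34), Hacd2 (-0.35) and Hacd4 (-0.35) did not pass the test. In the fit without wild-type replicate 4, 3 genes of the list were called, with Tecr at -0.79 and Hacd3 at 0.43. That fit called 2446 of 13777 genes higher and 2407 lower.

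Of 6 genes for forms of cytochrome b5 and its reductases, listed as electron supply to the desaturases, 5 were tested. In this list 1 rose and 2 fell, where 21.0% of all genes tested were called. Cyb5b, the cytochrome of the outer mitochondrial membrane, averaged 80.2 ± 6.95 CPM over knockout libraries, against 169 ± 15.2 CPM over wild-type libraries (SD, n = 4 each), at -1.08 ± 0.13 (edgeR adjusted p = 0.000256). The reductase Cyb5r3 had 202, 206, 219 and 213 CPM in knockout libraries and 556, 512, 560 and 243 CPM in wild-type libraries, at -1.16 ± 0.23 (edgeR adjusted p = 0.00539). Its groups were separate, with wild-type replicate 4 closest to the knockout values. Cyb5a, the cytochrome of the endoplasmic reticulum that serves the Scd and Fads enzymes, was abundant and averaged 900 ± 18.5 CPM over knockout libraries, against 770 ± 374 CPM over wild-type libraries (SD, n = 4 each), at 0.22 ± 0.35 (edgeR adjusted p = 0.696). Without wild-type replicate 4, which held 221 CPM, the value for Cyb5a was -0.07, that for Cyb5b -1.09, that for Cyb5r3 -1.36 and that for Cyb5r4 0.81, and 3 genes of the list were called. Over the whole table, 2446 of 13777 genes were higher and 2407 lower in that fit. The reductase Cyb5r4 rose by 0.81 ± 0.20 (edgeR adjusted p = 0.0143), and lost its call without knockout replicate 2 (0.70, adjusted p = 0.0542) or 4 (0.79, adjusted p = 0.0507).

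Transcription factors that act on these genes, and the proteins that process them, gave 3 higher, 3 lower and 12 uncalled genes of 18. Their median was -0.10, and 21.0% of all genes tested were called. Srebf1, the gene of SREBP-1c, had 76.9, 95.7, 97.2 and 89.8 CPM in knockout libraries and 364, 414, 382 and 371 CPM in wild-type libraries, at -2.09 ± 0.14 (edgeR adjusted p = 2.77e-06). Insig1, which holds SREBP in the endoplasmic reticulum and is itself an SREBP target, was at -1.61 ± 0.19 (edgeR adjusted p = 0.000233), and Mlxipl, the gene of ChREBP, at -0.83 ± 0.17 (edgeR adjusted p = 0.0056). These 3 genes had separate groups of libraries. In the other direction Ppara averaged 33.0 ± 1.67 CPM over knockout libraries, against 15.5 ± 1.71 CPM over wild-type libraries (SD, n = 4 each), at 1.08 ± 0.13 (edgeR adjusted p = 0.000244), and its partner Rxra was at 0.68 ± 0.13 (edgeR adjusted p = 0.00376). Insig2, named after its values were seen, was the third gene that rose, at 0.99 ± 0.21 (edgeR adjusted p = 0.00652). Nr1h3, the gene of LXRα, did not pass the test at -0.17 ± 0.18 (edgeR adjusted p = 0.54), and read 0.05 without wild-type replicate 4, where its level was highest. In that fit 7 regulators were called, with Srebf1 at -2.09, Insig1 at -1.76, Mlxipl at -0.89, Ppara at 1.08, Rxra at 0.68 and Insig2 at 0.90. Among all 13777 genes tested in it, 2446 were higher and 2407 lower.

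Peroxisomal chain shortening, which trims long chains and completes docosahexaenoate, gave 5 higher and 4 uncalled genes of 9 by edgeR. In the same fit 10.4% of all genes tested were higher. The median of the list was 0.70, and 6 of its genes were called without wild-type replicate 4. Leaving out that library gave 2446 higher and 2407 lower of 13777 genes tested. The bifunctional enzyme Ehhadh had 199, 265, 239 and 252 CPM in knockout libraries and 92.1, 70.6, 77.1 and 26.4 CPM in wild-type libraries, at 1.82 ± 0.29 (edgeR adjusted p = 0.00147). The thiolase Acaa1a averaged 318 ± 9.58 CPM over knockout libraries, against 143 ± 11 CPM over wild-type libraries (SD, n = 4 each), at 1.15 ± 0.12 (edgeR adjusted p = 0.000107). Both genes had separate groups of libraries, and without wild-type replicate 4 Ehhadh was at 1.58 and Acaa1a at 1.12.

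**Figure D5:**
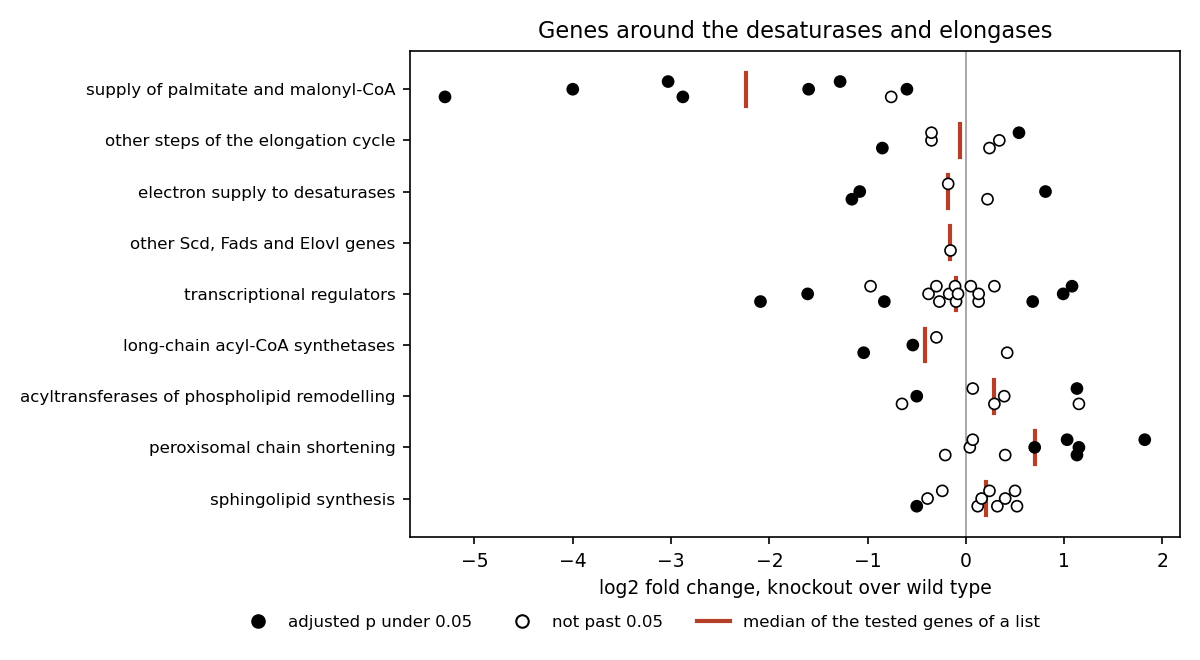
Log2 fold change, knockout over wild type, of each tested gene of 9 lists around the desaturases and elongases; filled points passed an adjusted p of 0.05 in edgeR, open points did not, and the red bar is the median of a list. The list that supplies palmitate and malonyl-CoA lies farthest left with a median of -2.24. With library size as the only scaling, where the median of all genes is 0.54, 9 genes of these lists were called against 28 here. Of all 13204 genes tested, that scaling called 561 higher and 124 lower, against 1369 and 1408 here.

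Of the remaining relatives of the members, Fads6 was tested and not called (-0.16 ± 0.23, edgeR adjusted p = 0.663), and was at -0.33 (adjusted p = 0.0245) without wild-type replicate 4. Elovl4 had 0 counts in every library. Elovl7 had 6, 6, 11 and 5 counts in knockout libraries and 1, 0, 0 and 0 counts in wild-type libraries, too few to be tested.

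Markers of other cell types also differed between the genotypes, where 10.4% of all genes tested rose and 10.7% fell. In bulk tissue, fewer cells of a type and less RNA per cell cannot be told apart. Of 10 Kupffer cell and macrophage markers 6 rose, with sums of 166 to 203 CPM in knockout and 64 to 216 CPM in wild-type libraries, and of 8 markers of sinusoidal endothelium 5 rose (138 to 260 CPM in knockout, 90.4 to 188 CPM in wild type). Of 7 B lineage markers 6 fell (11.7 to 75.1 CPM in knockout, 58.5 to 503 CPM in wild type), as did 3 of 8 stellate cell and fibroblast markers (97.6 to 105 CPM in knockout, 90.8 to 222 CPM in wild type) and 3 of the 4 T and NK cell markers tested (5.04 to 6.93 CPM in knockout, 8.8 to 17.9 CPM in wild type). Of 2 cholangiocyte markers tested 1 rose (31.4 to 33.0 CPM in knockout, 10.1 to 20.3 CPM in wild type), neither of the 2 neutrophil markers tested passed (7.15 to 9.04 CPM in knockout, 5.46 to 15.2 CPM in wild type), with Ly6g and Mpo at 0, and of 6 adipocyte markers only Cidec could be tested and rose (8.71 to 11.8 CPM in knockout and 3.37 to 5.91 CPM in wild type over the list). Adipoq, Plin1, Cfd, Lep and Ucp1 had 0 to 4 counts in any library. The rise in the adipocyte list is thus that of Cidec alone, not of adipocyte markers as a group. Neither of the 2 sebaceous gland and skin markers tested passed (21.6 to 27.8 CPM in knockout, 32 to 34.3 CPM in wild type). In the hepatocyte list 3 of 8 rose and 2 fell. The wild-type ranges include replicate 4. The part of these cell types in the levels of the desaturases and elongases was not tested.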

How the data were processed

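Bulk liver RNA of 8 libraries was compared, 4 knockout and 4 wild type, grouped by the labels. The authors deposited raw counts per gene, with no normalization, for 56748 Ensembl IDs. The submitters' processing notes name cutadapt 4.2, STAR 2.7.10a and the mm39 build. The counting program, its use of strand and its handling of reads that match several genes are not given in the sources used here. Names for 52073 IDs, exon lengths and 3′ UTRs came from GENCODE M21, and microRNA and promoter sequences from RefSeq GRCm38.p6. Neither is the build of the counts, so no position of a counted gene is given. IDs without a symbol held 0.332% to 1.57% of a library's counts.

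The test was edgeR 4.0.16 in R 4.3.3 (quasi-likelihood, robust, TMM factors, filterByExpr on genotype), two-sided, with no covariate, on 13204 of 25937 detected genes with Benjamini-Hochberg adjustment over all of them. Standard errors are the log2 fold change over the root of the F statistic. Levels between genes are CPM per kb of exon. Ratios within a library used counts + 0.5 and exact permutation tests. Members and lists were chosen with earlier results of these data known. Named genes are the 10 members, up to 2 higher and 2 lower genes with the smallest p per pathway list, any gene of a list of 6 or fewer, and Srebf1, Mlxipl, Nr1h3 and Ppara. Alternatives were other scalings and filters, DESeq2 1.42.0, limma 3.58.1 (voom with quality weights), a replicate block and each library left out. Leaving out mitochondrially encoded genes together with scaling by library size only was added after seeing the data. Total counts per library ran from 5085860 to 10966019. Replicates of a genotype differed by more than counting noise, so none was merged. The fit was checked on counts simulated for this knockout comparison over 12922 genes. It recovered 52 of 100 genes given a log2 change of 1 and 85 of 100 given 2, with 6.8% false among 147 calls. Apart from the planted genes, all simulated libraries shared the same mean make-up. The check therefore does not cover the differences in mitochondrial share or a library like wild-type replicate 4, and far fewer genes changed than were called here. Figures were drawn with matplotlib 3.10.9.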

Additional observations from a re-analysis of the deposited data

Results flagged for a closer look

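In 4 of 34 groups of 4 libraries examined, 1 library stood far from the other 3, with a gap to its nearest neighbour, as a share of the group's range, above Dixon's 95% critical value; chance gives such a gap in about 1 group in 20. Wild-type replicate 4 was the library in 3 of them. Its Elovl6 level of 656 CPM was above the 226, 279 and 226 CPM of wild-type replicates 1 to 3. Its Fads2 level of 218 CPM was below their 440, 406 and 417 CPM, and its Elovl2 level of 130 CPM was below their 320, 295 and 297 CPM. This library also had 77.8% mitochondrial counts and 1131446 nuclear counts, and the part of either in these 3 levels was not tested. The fourth was knockout replicate 1, whose Scd1 level of 114 CPM was below the 131, 133 and 134 CPM of the other knockout libraries, a small gap beside the 4009 CPM of the lowest wild-type library.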

How the results depend on the processing

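Scd1, Elovl6 and Elovl3 were called lower in all 18 alternatives to the reported fit, Fads3 in 17, Elovl5 in 16 and Fads1 in 8. Library size as the only scaling moved the median of all genes to 0.54, the members called to 3 and the genes called of the pathway lists to 9 (28 in the reported fit), and ended the call of Fads3 (adjusted p = 0.0511). With the mitochondrially encoded genes left out as well, an alternative added after seeing the data, 6 members were called. Under library size only these values turned positive, all below that median: Scd2 0.05, Fads2 0.04, Elovl1 0.27, Elovl2 0.42, Fads6 0.31, Nr1h3 0.51, Acsl4 0.02, Cers2 0.07 and Lpcat3 0.13. The value of Elovl2 also turned with the replicate block (0.05), with low counts left unfiltered (0.03), and without knockout replicate 1 or wild-type replicates 1 to 3 (0.05 to 0.10; -0.23 to 0.10 over all libraries left out in turn). Those of Cyb5a (-0.01) and Nr1h3 (0.03) turned with limma-voom and quality weights, and without wild-type replicate 4 (-0.07 and 0.05; -0.07 to 0.38 and -0.24 to 0.05 over all libraries left out in turn). None of these was past the threshold in either fit except Acsl4, Cers2 and Lpcat3 in the reported fit, and the cause was not tested. Leaving out each library gave 5 to 7 members called, and a Fads1 to Fads2 difference of -0.46 to -0.28, past 0.05 only without wild-type replicate 4 (-0.46). Deviations of libraries with the same replicate number correlated at -0.19, -0.03, -0.07 and -0.09, which shows no sign that the numbers pair the libraries. These deviations are from the means of small groups, so the values do not settle whether libraries were paired. With the replicate block 4 members were called, the whole table gave 643 higher and 624 lower genes against 1369 and 1408. For the ratios the block cannot move the mean differences of 1.09 (Elovl2 to Elovl5), -3.72 (Elovl6 to Elovl5), -5.15 (Scd1 to Scd2) and -0.37 (Fads1 to Fads2), and its exact p of 0.125, the smallest that 16 sign flips allow, cannot pass the threshold, so it says nothing of their stability. Counts of all genes also moved by over 1.5 times with library size only (561 higher, 124 lower), limma-voom (2409 and 2541), and without knockout replicates 2 (760 and 734), 3 (872 and 850) or 4 (761 and 728) or wild-type replicates 2 (858 and 938) or 4 (2446 and 2407). Scd2, with 3 to 45 counts, is the member that depth limits most.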

Other observations

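Genes that use the products of the desaturases and elongases were read from the same fit, in which 21.0% of all genes were called. Of 5 long-chain acyl-CoA synthetases 4 were tested and 2 fell, Acsl3 at -1.04 ± 0.13 (edgeR adjusted p = 0.000252) and Acsl4, which prefers arachidonate, at -0.54 ± 0.11 (edgeR adjusted p = 0.00785). Acsl4 stood at 19.7, 20.1, 19.3 and 20.7 CPM in knockout libraries and 30.7, 27.8, 29.0 and 28.1 CPM in wild-type libraries, where all 4 replicates were close together. Acsl1, the main liver form, was not called at 0.42 ± 0.15 (edgeR adjusted p = 0.0721), and passed without wild-type replicate 4 (0.32, adjusted p = 0.00576). In that fit 4 synthetases were called, with Acsl3 at -1.04 and Acsl4 at -0.54, where 2446 of 13777 genes were higher and 2407 lower.

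Of 9 acyltransferases that set the fatty acids of phospholipids 7 were tested, and 1 rose and 1 fell, with a median of 0.29. Agpat3 had 136, 185, 165 and 166 CPM in knockout libraries and 83.2, 77.5, 78.4 and 56.8 CPM in wild-type libraries, at 1.13 ± 0.16 (edgeR adjusted p = 0.000653). Lpcat3, which places polyunsaturated chains in phosphatidylcholine, averaged 69.3 ± 2.37 CPM over knockout libraries, against 98.6 ± 15.4 CPM over wild-type libraries (SD, n = 4 each), at -0.50 ± 0.14 (edgeR adjusted p = 0.0247). Its call was lost without any single knockout library, with adjusted p of 0.0647 to 0.0832 and values of -0.51 to -0.48. Without wild-type replicate 4, 2 genes of the list were called, with Agpat3 at 1.04 and Lpcat3 at -0.38. That fit called 2446 of all 13777 genes higher and 2407 lower. Of 10 genes of sphingolipid synthesis 1 fell and 9 did not pass, with a median of 0.20. That gene, Cers2, the synthase of very long chain ceramides in liver, averaged 173 ± 19.0 CPM over knockout libraries, against 244 ± 7.17 CPM over wild-type libraries (SD, n = 4 each), at -0.50 ± 0.13 (edgeR adjusted p = 0.0201). Its call was lost without any single knockout library or wild-type replicate 2, with adjusted p of 0.05 to 0.0661 and values of -0.53 to -0.42, and 3 genes of the list, Cers2 at -0.49 among them, were called without wild-type replicate 4.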
